A study of Mus musculus with 49 samples.

Results

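Translation initiation factor genes were followed in single late 2-cell mouse embryos in which the TBP or the FOXJ3 protein was targeted for degradation. The members were the protein-coding genes whose symbol starts with Eif and a digit, with Eif4e3 left out, and there were 54 of 54838 counted genes, or of 21998 protein-coding genes. The rule reads the gene symbol and the annotation and uses no expression value. Zygotes of F1(C57BL/6J x CBA/H) females mated with F1 males received antibody, then mRNA for mCherry-Trim21 4 h later. Each embryo was lysed on its own at 48 h post-hCG. TRIM21 is a ubiquitin ligase that binds antibodies, so that the antibody's target is degraded (Trim-Away). The mouse monoclonal antibody 3G3 against TBP (TBP LOF, 9 embryos) was compared with normal mouse IgG (mIgG CONTROL, 9 embryos), and a rabbit polyclonal antibody against FOXJ3 (FOXJ3 LOF, 16 embryos) with normal rabbit IgG (rIgG CONTROL, 13 embryos). All 4 groups carried the construct, none was left uninjected, and the embryos came from at least 3 collections, but the sources used here do not say which embryos shared one. The FOXJ3 experiment spanned 2 library batches. Batch 1 gave 9 of its LOF and 7 of its CONTROL embryos, and batch 2 the other 7 and 6. Each library was a whole embryo, and the paper places the collected embryos at the late 2-cell stage in all groups. Levels are therefore per embryo, and a difference in cell number between the groups was not tested.

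Initiation factors bring the small ribosomal subunit, the initiator tRNA and the mRNA together and let the large subunit join at the start codon. eIF2 carries the initiator tRNA, eIF2B recharges eIF2 with GTP, and kinases that phosphorylate eIF2 block this recharging under stress. eIF4F, made of the cap-binding eIF4E, the scaffold eIF4G and the helicase eIF4A, recruits the mRNA, and eIF3 bridges it to the small subunit. In oocytes and early embryos proteins are first made from stored maternal mRNAs, and the embryo's own transcription replaces these from the 2-cell stage on. TBP, the TATA-binding protein, is part of the factor that places RNA polymerase at promoters, and FOXJ3 is a forkhead transcription factor.

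Embryos held between 1103569 and 5434808 counted 5′ reads, and between 13736 and 18004 genes with a read. Trim-Away acts on the protein, so mRNA does not check the loss. Tbp mRNA was itself lower in TBP LOF embryos, at 6.59 to 151 normalised reads against 195 to 672 in CONTROL (log2 -2.14, edgeR adjusted p = 5.28e-06). Foxj3 mRNA ran from 229 to 466 in FOXJ3 LOF and from 123 to 333 in CONTROL (log2 0.28, edgeR adjusted p = 0.861). All 6 markers of the 2-cell stage and all 4 oocyte markers that were looked up had reads in each group. Summed markers of cumulus and granulosa cells stayed at or under 24.9 reads per 1000000 counted on genes and transposable elements (CPM) in every embryo. Of these 8 genes, between 3 and 5 had reads in each group, and Fshr was at 0 in all 4 groups. The 3 blood markers summed to 39.3 CPM or less, with reads of Hba-a1 in all 4 groups and Hbb-bs at 0.

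The 54 members together took a median of 0.697% (range 0.593% to 0.855%) of the reads on genes and families of transposable elements (TEs) in mIgG CONTROL and 0.786% (range 0.385% to 1.24%) in rIgG CONTROL. This share was 0.414% (range 0.275% to 0.600%) in TBP LOF and 0.772% (range 0.592% to 0.990%) in FOXJ3 LOF embryos. Only the highest TBP LOF embryo reached the lowest embryo of its CONTROL. 2 rIgG CONTROL embryos of library batch 1 stood apart, embryo 2 with 0.479% and embryo 3 with 0.385%, both within the TBP LOF range. Their summed 2-cell markers were 617 and 931 CPM, and their oocyte markers 3037 and 4007, the highest values of the 13 embryos on both lists. The FOXJ3 results are therefore given with and without these 2 embryos. They were picked for their low share of the members' reads. Low levels of single members in them, and lower FOXJ3 changes of the members as a set without them, therefore follow from this choice.

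**Figure D1:**
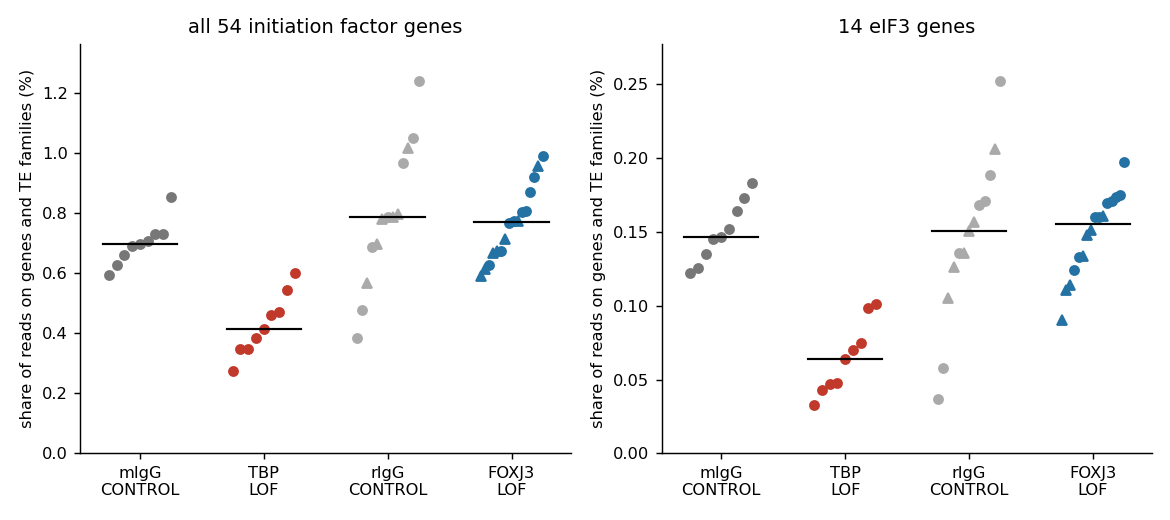
Share of the reads on genes and TE families (%) taken by all 54 initiation factor genes (left) and by the 14 eIF3 genes (right), 1 point per embryo and a line at the median of each group, with triangles for library batch 2 of the FOXJ3 experiment. TBP LOF embryos lie between 0.275% and 0.600% on the left, where 2 rIgG CONTROL embryos of batch 1 lie at 0.385% and 0.479%.

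In CONTROL embryos the members spanned a wide range of levels, and per kilobase (kb) of exon Eif5a and Eif6 ranked 1 and 2. Eif5a, which helps the ribosome past difficult stretches, had a median of 257 CPM per kb in mIgG CONTROL and 352 in rIgG CONTROL. For Eif6, which keeps the large ribosomal subunit from joining early, these medians were 156 and 206 CPM per kb. Eif3h, an eIF3 subunit, was at 124 and 128, and Eif4a3, a helicase of the exon junction complex, at 119 and 143. They took ranks 3 and 4 in an order that differed between the groups. Neighbours among the first 5 ranks overlapped between embryos in both groups. Only 5′ reads were counted, so that dividing by length bears on this order. In CPM without the length, Eif2s2 ranked 1 in mIgG CONTROL and 4 in rIgG CONTROL, Eif5a 2 and 1, and Eif6 5 and 3, with median Eif6 levels of 422 (range 339 to 688) and 557 (range 171 to 1116) CPM. Eif5a had a median of 611 (range 399 to 942) CPM in mIgG CONTROL and 836 (range 527 to 1472) in rIgG CONTROL. For Eif4e, the cap-binding protein, these values were 559.6 (range 304 to 828) and 647 (range 301 to 1166) CPM. Eif2s2, the beta subunit of eIF2, had 648 (range 374 to 791) and 477 (range 269 to 885) CPM. Eif5, which makes eIF2 hydrolyse its GTP, had 464 (range 317 to 549.8) and 472 (range 169 to 835). At the other end, Eif2ak2 (PKR, the kinase that senses double-stranded RNA) and Eif4ebp3, an eIF4E-binding protein, had a median of 0 in both groups. Members with a mean of at least 100 normalised reads varied between mIgG CONTROL embryos by a median coefficient of variation of 31.9% (36 members), against 32.7% for all 2587 genes and TE families at this level.

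Since TBP is named for the TATA box, the RefSeq promoter table (GRCm38.p6) was searched for it, and 43 of the 54 members had an entry. TATAAA or TATATA starting 40 to 20 bases before the listed start was found in 0 of these 43 members on the listed strand, and in 3.30% of all 27025 genes of the table. On either strand these were 0 members and 3.87% of genes. TATATA reads the same on both strands. Anywhere in the 300 bases of an entry and on either strand, the letters were in 5 members (11.6%) and in 19.6% of all genes. The members' entries were rich in CG dinucleotides, with a median of 24 against 7 over all genes, and had a median GC content of 62.3% against 52.8%. A C at the start followed by 4 pyrimidines, as in many mRNAs of the translation machinery, was at the listed start of 2 members, Eif3f and Eif2s3x (4.65%), and of 3.01% of all genes. The stretches from 60 bases before to 20 bases after the listed start are printed below. They are those of 3 members with low adjusted p in TBP LOF embryos (Eif3m, Eif3c, Eif2s2) and 1 that edgeR did not call there (Eif4a1). The 2 pyrimidine starts follow, and Eif1, where TATATA begins at base 8 after the listed start. Capitals mark the searched letters.
Eif3m (chr2:105017008-105017087, minus strand): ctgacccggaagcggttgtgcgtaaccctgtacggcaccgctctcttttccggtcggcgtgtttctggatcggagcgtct
Eif3c (chr7:126566347-126566426, minus strand): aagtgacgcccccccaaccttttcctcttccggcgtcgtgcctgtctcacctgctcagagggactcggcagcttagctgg
Eif2s2 (chr2:154892887-154892966, minus strand): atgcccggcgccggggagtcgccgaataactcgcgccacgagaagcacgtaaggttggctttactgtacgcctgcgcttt
Eif4a1 (chr11:69672404-69672483, minus strand): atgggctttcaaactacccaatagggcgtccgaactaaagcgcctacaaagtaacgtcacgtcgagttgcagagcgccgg
Eif3f (chr7:108934355-108934434, plus strand): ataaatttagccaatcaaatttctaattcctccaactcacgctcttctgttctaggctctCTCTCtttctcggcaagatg
Eif2s3x (chrX:94212632-94212711, minus strand): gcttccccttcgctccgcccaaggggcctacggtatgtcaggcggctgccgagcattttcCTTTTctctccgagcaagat
Eif1 (chr11:100319889-100319968, plus strand): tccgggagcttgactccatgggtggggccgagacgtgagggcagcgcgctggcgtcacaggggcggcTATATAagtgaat

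TBP LOF embryos held less of most initiation factor mRNAs. 53 members were tested, and with scaling to ERCC spike-ins 39 of them (73.6%) were lower in TBP LOF embryos and 1 was higher (edgeR's quasi-likelihood test, Benjamini-Hochberg adjustment over all 19359 genes and TE families tested, threshold 0.05). Of all genes and TE families tested, 29.7% were lower and 1.34% higher. Members are well expressed, and highly expressed features were called more often. At a CONTROL mean of at least 100 normalised reads, 29 of 36 members were lower (80.6%), and of all features at this level 68.2% were lower and 0.618% higher. The median log2 change was -1.48 over the tested members and -0.72 over all features, and at the higher level -1.56 and -1.26. In 21 members, all lower, the embryos of the 2 groups did not overlap (39.6%), as in 6.69% of all features, and 0.0103% of all features were apart in the other direction. The share without overlap was not taken at the higher level, so that these shares are not matched for expression.

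Spike-in scaling keeps a loss that most mRNAs share, and TMM scaling, which centres the bulk of the features, removes it. With TMM the median of all features moved to 0.11, and 26 members were lower and 2 higher, against 12.7% and 12.8% of all features. All 26 were also lower with spike-in scaling. The members' median was then -0.63. At a CONTROL mean of at least 100 normalised reads 21 of 36 members were lower (58.3%), and of all features at this level 39.4% were lower and 16.2% higher. The sign of the change differed between the scalings in 11 members. 9 of them are described below, and the others were Eif4h, which assists the helicase (log2 -0.49 ± 0.29, adjusted p = 0.215, TMM log2 0.44, adjusted p = 0.182), and Eif2d, an alternative carrier of tRNA (log2 -0.69 ± 0.33, adjusted p = 0.108, TMM log2 0.24, adjusted p = 0.523). Stage markers differed with the group. The 6 markers of the 2-cell stage summed to a median of 881 (range 319.9 to 1108) CPM in TBP LOF and 178 (range 103 to 548) in CONTROL, and the 4 oocyte markers to 2435 (range 1789.95 to 3301) and 1296 (range 719.7 to 2260.2). Spike-ins took a median of 4.38% of counted reads in TBP LOF and 2.82% in CONTROL. The part of these differences in the results was not tested.

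**Figure D2:**
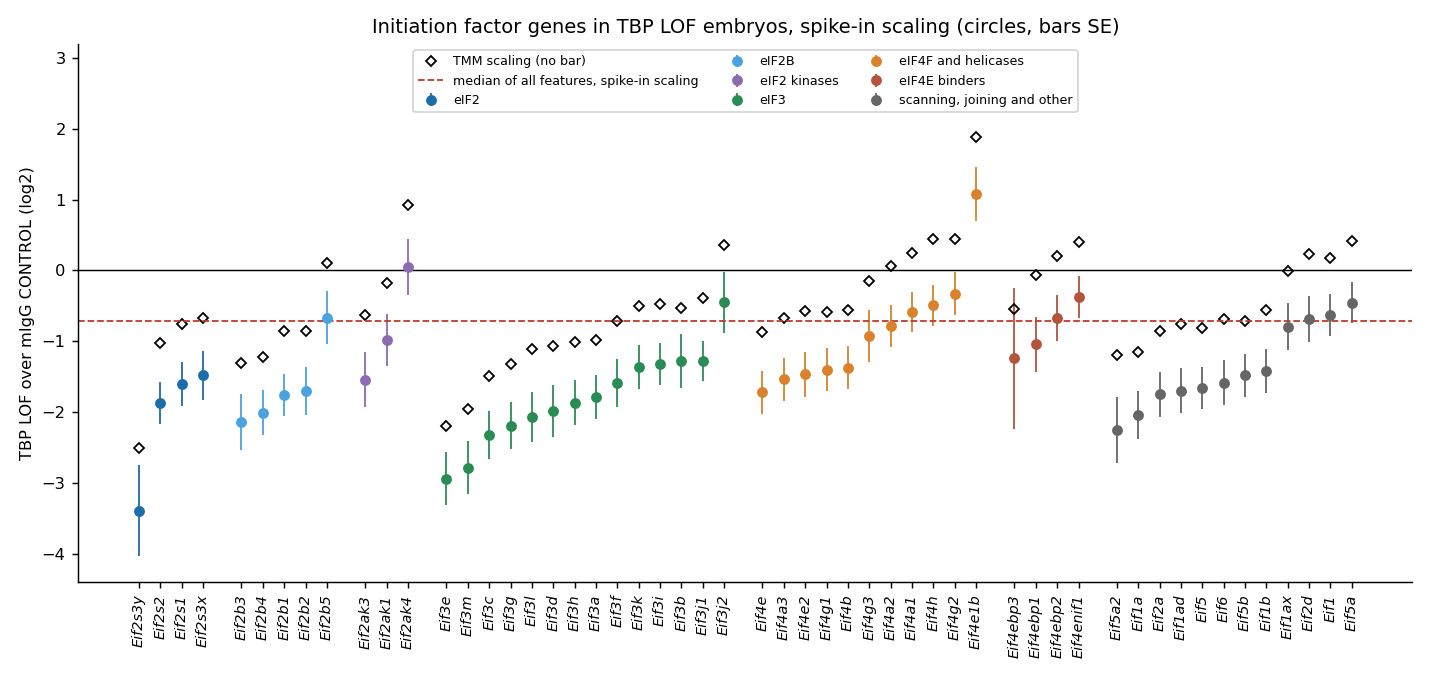
Change of the 53 tested initiation factor genes in TBP LOF embryos against mIgG CONTROL (log2), grouped by role. Circles with bars are the spike-in estimates with their SE, open diamonds the TMM estimates, and the dashed line is the median of all features with spike-in scaling (-0.72). Of the 53 genes, 41 from all roles lie under the line, which is not matched for expression. Eif4e1b lies above 0 with both scalings.

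All 4 genes of eIF2 were lower in TBP LOF embryos. Counts by role stand beside 29.7% lower among all features with spike-in scaling and 12.7% with TMM. At a CONTROL mean of at least 100 these were 68.2% and 39.4%. The lowest, median and highest embryo are given for each gene in this order, in normalised reads. For Eif2s2 (beta subunit, chr2:154871410-154892935, minus strand) these were 167, 357 and 611 in LOF and 669, 1440.2 and 1704 in CONTROL. Every LOF embryo lay under every CONTROL embryo (log2 -1.87 ± 0.29, adjusted p = 1.12e-06, TMM log2 -1.03, adjusted p = 0.000321). Eif2s1, the alpha subunit that stress kinases phosphorylate, had 37.4, 151 and 213 in LOF and 337, 364 and 702 in CONTROL. Here too the groups did not overlap (log2 -1.60 ± 0.31, adjusted p = 3.14e-05, TMM log2 -0.75, adjusted p = 0.0111). Eif2s3x, the X-linked gene of the gamma subunit, had 7.73, 45.01 and 71.2 in LOF and 52.8, 121 and 213 in CONTROL. The groups overlapped, with all 9 LOF embryos under the CONTROL median, and the call was lost with TMM (log2 -1.48 ± 0.34, adjusted p = 0.000531, TMM log2 -0.68, adjusted p = 0.0587). Eif2s3y is its copy on the Y chromosome, with 0, 0 and 22.9 in LOF and 0, 36.4 and 88.7 in CONTROL, and 6 LOF embryos and 1 CONTROL embryo were at 0 (log2 -3.39 ± 0.64, adjusted p = 2.66e-05, TMM log2 -2.51, adjusted p = 0.00485). Without LOF embryo 10 the change was log2 -5.18. Of 3 other Y-linked genes, Uty had reads in the same 3 of 9 LOF and 8 of 9 CONTROL embryos, Kdm5d in 3 and 8, and Ddx3y in 0 and 8. The labels give no sex, and fewer embryos with a Y chromosome and less Eif2s3y mRNA cannot be told apart.

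In eIF2B, the exchange factor that recharges eIF2, 4 of 5 genes were lower with both scalings. Of all features at a CONTROL mean of at least 100, 68.2% were lower with spike-in scaling and 39.4% with TMM. Eif2b4 (delta subunit, chr5:31187558-31193430, minus strand) had 23.7, 88.2 and 138 in LOF and 207, 325 and 446 in CONTROL. Every LOF embryo lay under every CONTROL embryo (log2 -2.01 ± 0.32, adjusted p = 1.45e-06, TMM log2 -1.22, adjusted p = 0.000361). Eif2b1 (alpha subunit, chr5:124570213-124579131, minus strand) had 46.8, 66.7 and 117 in LOF and 135, 224 and 396 in CONTROL, again without overlap (log2 -1.75 ± 0.29, adjusted p = 3.91e-06, TMM log2 -0.85, adjusted p = 0.00236). Eif2b3 and Eif2b2, the gamma and beta subunits, changed by log2 -2.14 and -1.70. Eif2b5, the catalytic epsilon subunit, did not pass the test (log2 -0.67 ± 0.37, adjusted p = 0.1802, TMM log2 0.10, adjusted p = 0.847).

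Of the 4 kinases that phosphorylate eIF2, 2 were lower with spike-in scaling and 0 with TMM, against 29.7% and 12.7% of all features. Eif2ak3 (PERK, the kinase of the endoplasmic reticulum) had 5.81, 10.4 and 27.05 in LOF and 16.3, 34.7 and 61.8 in CONTROL. All 9 LOF embryos were under the CONTROL median, though the groups overlapped (log2 -1.54 ± 0.39, adjusted p = 0.00139, TMM log2 -0.63, adjusted p = 0.144). For Eif2ak1 (HRI, controlled by haem) the values were 5.13, 17.4 and 36.5 in LOF and 21.4, 38.96 and 66.04 in CONTROL. These groups overlapped as well (log2 -0.98 ± 0.37, adjusted p = 0.0334, TMM log2 -0.17, adjusted p = 0.698), and the call was lost in 6 of 18 fits with 1 embryo left out (adjusted p 0.0157 to 0.0853). Eif2ak4 (GCN2, which senses uncharged tRNA) had 7.73, 18.98 and 30.2 in LOF and 9.50, 19.95 and 30.7 in CONTROL. Its groups overlapped, and it was called higher with TMM (log2 0.050 ± 0.40, adjusted p = 0.947, TMM log2 0.92, adjusted p = 0.0306) and with size factors over genes and TE families, not with spike-ins. Eif2ak2 had 8 reads in the 18 embryos and was not tested, and ran from 0 through a median of 0 to 1.84 in LOF and 2.97 in CONTROL.

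eIF3, the largest initiation factor, had 13 of 14 genes lower and 9 of them without overlap between the groups. With TMM 9 of the 14 were lower. Of all features at a CONTROL mean of at least 100, 68.2% were lower with spike-in scaling and 39.4% with TMM. Without overlap and lower were 6.69% of all features at any level. Eif3e (chr15:43250058-43282719, minus strand), a subunit that budding yeast lacks, had 5.07, 10.4 and 34.9 in LOF and 54.6, 123 and 164 in CONTROL. Every LOF embryo lay under every CONTROL embryo, and it had the smallest p of the members (log2 -2.94 ± 0.37, adjusted p = 1.54e-08, TMM log2 -2.20, adjusted p = 1.63e-06). Eif3m (chr2:104999656-105017080, minus strand), also absent from budding yeast, had 7.24, 31.2 and 89.3 in LOF and 153, 199 and 374 in CONTROL. The highest LOF embryo, embryo 10, was at 89.3 and still under the lowest CONTROL embryo (log2 -2.79 ± 0.37, adjusted p = 5.19e-08, TMM log2 -1.96, adjusted p = 5.60e-05). Eif3c (chr7:126546455-126566411, minus strand), a core subunit, had 27.8, 139.6 and 279 in LOF and 471, 662 and 854 in CONTROL, with no overlap (log2 -2.33 ± 0.34, adjusted p = 2.63e-07, TMM log2 -1.49, adjusted p = 0.0002101). For Eif3g (chr9:20894349-20898623, minus strand), which takes part in scanning, the values were 13.9, 78.4 and 143 in LOF and 188, 292 and 589 in CONTROL. They did not overlap either (log2 -2.19 ± 0.33, adjusted p = 6.02e-07, TMM log2 -1.32, adjusted p = 0.000375). Eif3a (chr19:60761117-60790658, minus strand), the largest subunit, had 41.3, 100.2 and 249.96 in LOF and 256, 415 and 603 in CONTROL. Its highest LOF embryo came close to its lowest CONTROL embryo (log2 -1.79 ± 0.31, adjusted p = 6.88e-06, TMM log2 -0.98, adjusted p = 0.00133).

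The loosely bound eIF3j subunit is encoded by a pair of similar genes. Eif3j1 had 86.4, 144 and 219 in LOF and 238, 335 and 493 in CONTROL. Its groups did not overlap, and the call was lost with TMM (log2 -1.28 ± 0.28, adjusted p = 0.000247, TMM log2 -0.39, adjusted p = 0.129). Eif3j2, the rarer copy, had 2.66, 14.7 and 35.6 in LOF and 5.77, 22.8 and 46.1 in CONTROL. It was the only eIF3 gene not called with spike-in scaling, and its sign turned with TMM (log2 -0.45 ± 0.43, adjusted p = 0.4803, TMM log2 0.36, adjusted p = 0.531). Among the 7 other eIF3 genes, the spike-in change ran from log2 -2.07 in Eif3l to -1.28 in Eif3b. eIF3 reads together made up 0.0329% to 0.102% of an embryo's reads in TBP LOF and 0.122% to 0.183% in CONTROL, a share that does not rest on either scaling. These groups did not overlap. Of the FOXJ3 experiment, both rIgG CONTROL embryos that stood apart (0.0577% and 0.0370%) and the lowest FOXJ3 LOF embryo (0.0906%) lay within the TBP LOF range.

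**Figure D3:**
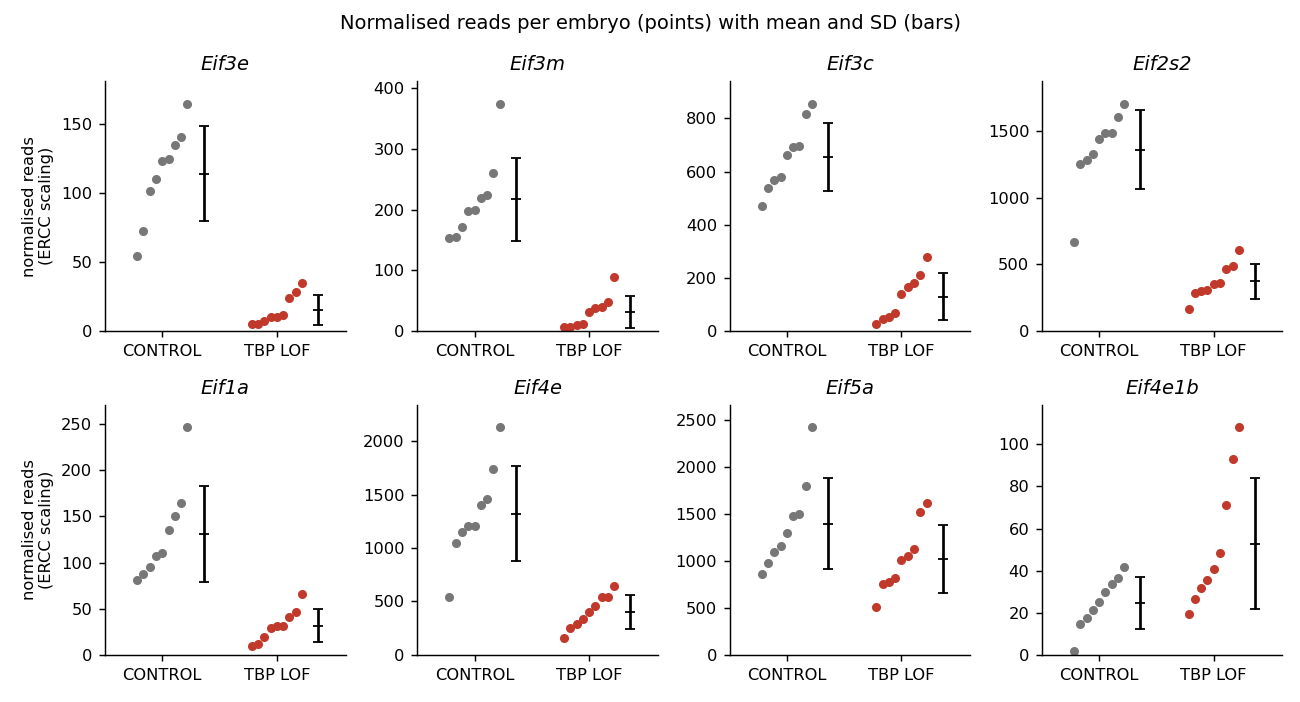
Normalised reads (spike-in scaling) of 8 initiation factor genes in 9 mIgG CONTROL and 9 TBP LOF embryos, 1 point per embryo in order of level, with the mean and SD beside them. The groups are apart for Eif3e, Eif3m, Eif3c, Eif2s2 and Eif1a and overlap for Eif4e, Eif5a and Eif4e1b, where the LOF mean of Eif4e1b is the higher one.

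The cap-binding and helicase genes were split, with 7 of 11 lower and 1 higher, and 4 lower and 1 higher with TMM. The lower counts were near the shares of all features at a CONTROL mean of at least 100, 68.2% with spike-in scaling and 39.4% with TMM. Eif4e (chr3:138526179-138559696, plus strand) had 158, 398 and 643 in LOF and 542, 1209 and 2127 in CONTROL. All 9 LOF embryos were under the CONTROL median, and 1 CONTROL embryo lay within the LOF range (log2 -1.72 ± 0.30, adjusted p = 9.63e-06, TMM log2 -0.87, adjusted p = 0.00216). Eif4g1, the main scaffold, had 47.8, 124 and 283 in LOF and 257, 362 and 418 in CONTROL. The groups met only at their edges (log2 -1.40 ± 0.30, adjusted p = 0.000171, TMM log2 -0.59, adjusted p = 0.0398). Eif4g3, a second scaffold, had 5.31, 19.7 and 49.2 in LOF and 23.5, 39.9 and 56.4 in CONTROL, and its call did not hold with TMM (log2 -0.92 ± 0.37, adjusted p = 0.0459, TMM log2 -0.15, adjusted p = 0.7197). It was also lost in 14 of 18 fits with 1 embryo left out (adjusted p 0.0119 to 0.08803). Eif4g2 (DAP5), a relative that lacks the eIF4E site, had 108, 361 and 561 in LOF and 239.8, 351 and 640.5 in CONTROL. Its median was higher in LOF than in CONTROL, and no call was made with either scaling (log2 -0.33 ± 0.30, adjusted p = 0.461, TMM log2 0.44, adjusted p = 0.1202).

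The eIF4A helicases unwind the mRNA ahead of the small subunit. Eif4a1 had 179, 367 and 476 in LOF and 381, 468 and 814 in CONTROL. The groups overlapped, edgeR made no call, and the sign turned with TMM (log2 -0.59 ± 0.28, adjusted p = 0.107, TMM log2 0.24, adjusted p = 0.348). DESeq2 with ERCC size factors called Eif4a1 lower (adjusted p = 0.0382). Eif4a2 had 60.8, 130.2 and 173 in LOF and 84.2, 208 and 351 in CONTROL. It was lower with spike-in scaling, with all 9 LOF embryos under the CONTROL median, and near 0 with TMM (log2 -0.79 ± 0.30, adjusted p = 0.0343, TMM log2 0.066, adjusted p = 0.853). Leaving out 1 embryo ended the call in 5 of 18 fits (adjusted p 0.0163 to 0.0921). Eif4a3, a helicase of the exon junction complex, was lower without overlap, at 84.99, 233 and 332 in LOF and 453, 538 and 1208 in CONTROL (log2 -1.54 ± 0.31, adjusted p = 6.17e-05, TMM log2 -0.67, adjusted p = 0.0243).

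Eif4e1b, an eIF4E relative of oocytes and early embryos (chr13:54783998-54788459, plus strand), was the only member that was higher in TBP LOF embryos with spike-in scaling, and with TMM Eif2ak4 was higher as well. Its values were 19.7, 41.02 and 108 in LOF and 1.69, 24.9 and 41.7 in CONTROL. The groups overlapped, with 8 of 9 LOF embryos above the CONTROL median (log2 1.08 ± 0.38, adjusted p = 0.0242, TMM log2 1.88, adjusted p = 5.95e-05). Without 1 of 3 embryos (TBP LOF embryo 2 or 8, or CONTROL embryo 1) the call with spike-in scaling was lost, and over all single embryos left out the adjusted p ran from 0.0133 to 0.0716.

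Of the 4 genes whose products bind eIF4E, 1 was lower with spike-in scaling and 0 with TMM, against 29.7% and 12.7% of all features. Eif4ebp1, a repressor that mTOR releases from eIF4E, had 6.35, 19.3 and 40.3 in LOF and 14.4, 29.9 and 108 in CONTROL. The groups overlapped, and the change was close to 0 with TMM (log2 -1.04 ± 0.39, adjusted p = 0.0336, TMM log2 -0.071, adjusted p = 0.916). The call was lost in 8 of 18 fits with 1 embryo left out (adjusted p 0.0161 to 0.167). Eif4ebp2, its relative, had 22.7, 34.9 and 107 in LOF and 30.3, 74.03 and 126 in CONTROL. No call was made and the sign turned with TMM (log2 -0.67 ± 0.33, adjusted p = 0.116, TMM log2 0.21, adjusted p = 0.598). Eif4enif1 (4E-T), which holds stored mRNAs with eIF4E in the cytoplasm, had 41.5, 139 and 252 in LOF and 107, 171 and 223 in CONTROL. 3 LOF embryos lay under the CONTROL range and 1 above it (log2 -0.37 ± 0.30, adjusted p = 0.388, TMM log2 0.40, adjusted p = 0.133).

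Among the factors for scanning, start codon choice and subunit joining, 8 of 12 were lower, and 6 with TMM. Of all features at a CONTROL mean of at least 100, 68.2% were lower with spike-in scaling, near the share of these 12, and 39.4% with TMM. Eif1a, an autosomal gene of eIF1A, had 9.19, 31.3 and 66.1 in LOF and 80.6, 109.9 and 246 in CONTROL. Every LOF embryo lay under every CONTROL embryo (log2 -2.04 ± 0.34, adjusted p = 3.32e-06, TMM log2 -1.15, adjusted p = 0.00307). Eif1ax, its X-linked counterpart, had 17.9, 54.9 and 148 in LOF and 60.7, 118 and 206 in CONTROL. The groups overlapped and the change did not pass the test (log2 -0.79 ± 0.33, adjusted p = 0.0628, TMM log2 -0.0053, adjusted p = 0.993). Eif1ad, named for an eIF1A-like domain, had 20.5, 40.4 and 80.9 in LOF and 96.4, 128 and 298 in CONTROL, without overlap (log2 -1.70 ± 0.32, adjusted p = 2.41e-05, TMM log2 -0.76, adjusted p = 0.0196). Eif1, which guards start codon choice, had 105, 214 and 402 in LOF and 203, 335 and 611 in CONTROL. No call was made and the sign turned with TMM (log2 -0.63 ± 0.30, adjusted p = 0.102, TMM log2 0.17, adjusted p = 0.598).

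Eif5 had 114, 347 and 505 in LOF and 599.9, 1004 and 1427 in CONTROL normalised reads. Its groups did not overlap (log2 -1.66 ± 0.30, adjusted p = 1.01e-05, TMM log2 -0.82, adjusted p = 0.00369). Eif6 had 96.7, 339 and 757 in LOF and 733, 941 and 1767 in CONTROL. Only the highest LOF embryo reached the CONTROL range, and TMM lost the call (log2 -1.59 ± 0.32, adjusted p = 7.67e-05, TMM log2 -0.68, adjusted p = 0.0624). Eif5a, the most abundant member per kilobase, had 514, 1011 and 1615 in LOF and 863, 1301 and 2421 in CONTROL. It was not called with either scaling, and the sign turned (log2 -0.46 ± 0.29, adjusted p = 0.252, TMM log2 0.42, adjusted p = 0.135). Eif3f and Eif2s3x, with a pyrimidine run at the listed start, changed by log2 -1.59 and -1.48, and the 40 tested members that had a RefSeq promoter entry and no such start had a median of -1.47.

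The ratio of 2 genes within an embryo does not depend on how embryos are scaled. The reads of 8 pairs, mostly related genes, were therefore set against each other as a description. The pairs were chosen after the changes of their genes were known, so that their shares repeat those changes and are given with no test. Eif4e took 78.2%, 87.7% and 94.5% in LOF and 96.9%, 97.8% and 99.9% in CONTROL of the reads of Eif4e and Eif4e1b in the TBP experiment, as the lowest, median and highest embryo. Every LOF embryo was under every CONTROL embryo. The share was 89.2%, 98.00% and 99.5% in FOXJ3 LOF and 84.7%, 96.7% and 99.8% in rIgG CONTROL, where the lowest embryos of both groups lay within the TBP LOF range. Eif1a took 19.7%, 35.1% and 45.97% in LOF and 32.1%, 56.1% and 65.1% in CONTROL of the reads of Eif1a and Eif1ax in the TBP experiment. The groups overlapped, and reads that fit both of these close relatives cannot be assigned to one of them. For Eif5a, the share of the reads of Eif5a and Eif5a2 was 98.9%, 99.3% and 99.9% in LOF and 97.2%, 98.1% and 99.2% in CONTROL. It was near 100% in every group, since Eif5a2 is rare.

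Eif4e set against its repressor gene Eif4ebp2 took 83.1%, 89.6% and 94.8% in LOF and 87.9%, 94.8% and 97.4% in CONTROL of their reads, in overlapping ranges. The median share of Eif2s3x in the reads of Eif2s3x and Eif2s3y was 100% in TBP LOF and 79.8% in CONTROL, and this share also follows the sex of the embryos. For the other pairs the ranges overlapped as well. Eif4g1 took a median of 86.96% in TBP LOF and 89.7% in CONTROL of the reads of Eif4g1 and Eif4g3. For Eif3j1 against Eif3j2 the medians were 89.2% in TBP LOF and 95.1% in CONTROL, and for Eif4a1 against Eif4a2 they were 74.00% in TBP LOF and 70.4% in CONTROL.

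**Figure D4:**
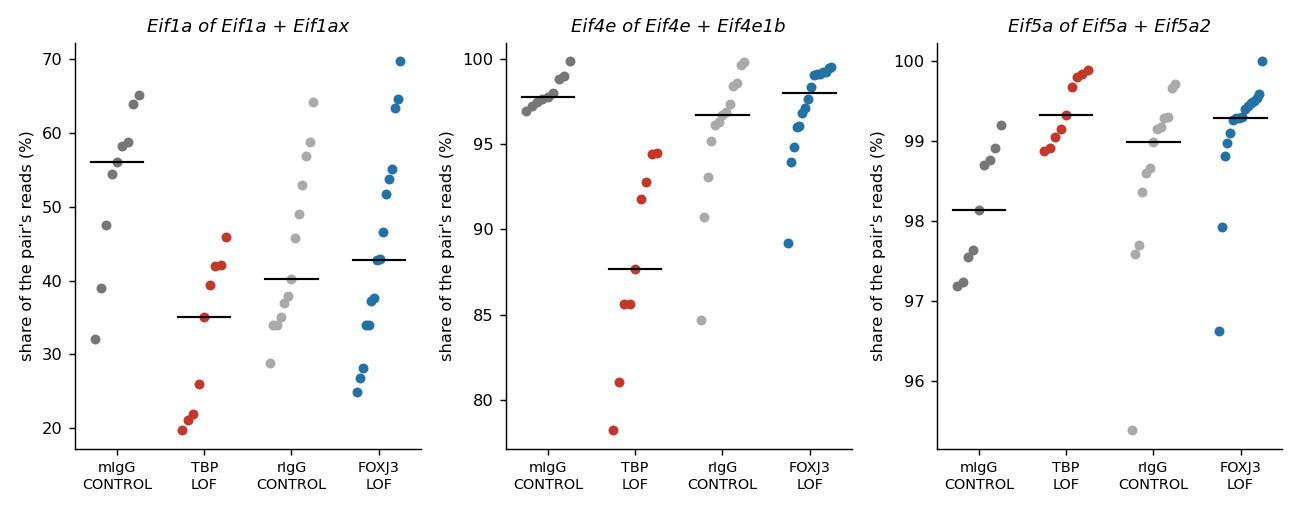
Share of the first gene in the reads of a pair of related genes (%), 1 point per embryo with a line at the median of each of the 4 groups. For Eif4e against Eif4e1b, TBP LOF embryos lie between 78.2% and 94.5%, under all mIgG CONTROL embryos, and the lowest rIgG CONTROL (84.7%) and FOXJ3 LOF (89.2%) embryos lie in the same range. The vertical axes do not start at 0.

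Genes that work with the initiation factors were taken from lists by function. Their counts stand beside 29.7% lower and 1.34% higher among all features with spike-in scaling (68.2% lower at a CONTROL mean of at least 100), 12.7% lower and 12.8% higher with TMM, and a median log2 change of -0.72 with spike-in scaling. Of 20 partners of initiation, 11 were lower in TBP LOF embryos and 0 higher (median log2 -1.30), and with TMM 9 were lower and 4 higher. The strongest fall on this list was in Abce1, which recycles ribosomes (log2 -3.11 ± 0.41, adjusted p = 4.35e-08, TMM log2 -2.22, adjusted p = 2.81e-05). Pabpc1, the poly(A)-binding protein that loops mRNAs, was lower (log2 -1.70 ± 0.30, adjusted p = 7.65e-06, TMM log2 -0.82, adjusted p = 0.0139). Ddx3x, a helicase of initiation, was close to 0 with spike-ins and higher with TMM (log2 -0.011 ± 0.29, adjusted p = 0.985, TMM log2 0.78, adjusted p = 0.00204), and so was Dazl, an RNA-binding protein of germ cells (log2 0.077 ± 0.33, adjusted p = 0.899, TMM log2 0.89, adjusted p = 0.01199). Pabpc1l and Paip1 were the others higher with TMM, at log2 1.24 and 0.87.

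For elongation and termination, 7 of 10 genes were lower and 1 was higher (median log2 -1.27), against 2 lower and 2 higher with TMM. Eef2k, the kinase that restrains elongation, was higher with both scalings (log2 0.91 ± 0.36, adjusted p = 0.04498, TMM log2 1.62, adjusted p = 9.74e-05), and Eef1e1 was lower with both (log2 -2.19 ± 0.36, adjusted p = 2.07e-06, TMM log2 -1.31, adjusted p = 0.000852). With TMM, Eef1a1 was higher as well, at log2 0.68, and Eef1d lower, at -0.70. For the stress response around eIF2 and for mTOR, 9 of 16 genes were lower and 0 higher (median log2 -1.11), against 2 lower and 2 higher with TMM. Atf4, the factor that eIF2 phosphorylation induces at the level of translation, was lower with spike-ins and not called with TMM (log2 -1.10 ± 0.33, adjusted p = 0.00663, TMM log2 -0.19, adjusted p = 0.656). Sesn2 and Rps6kb2 were lower with both scalings, at log2 -1.74 and -2.56 with spike-ins. Ppp1r15a and Tsc2 were higher with TMM and not called with spike-ins, at log2 1.13 and 1.24, and the shares of this list with TMM were near those of all features. In the FOXJ3 experiment 0 of these 46 genes were called.

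In FOXJ3 LOF embryos no initiation factor gene was called. By edgeR's test with TMM scaling and batch as a covariate, 0 of 53 tested members passed, and of all 19520 features 0.0102% were lower and 0.0% higher. DESeq2 called 0 members as well, and 0.0205% of all features lower. At an unadjusted p under 0.05 there was 1 member, Eif1b, against 5.72% of all features. The members' median log2 change was 0.086, and -0.031 over all features. Their standard errors had a median of 0.192, and for 49 of 53 members the 95% interval (normal quantile times the SE) excluded both a halving and a doubling. The signs in library batches 1 and 2 were the same in 21 members. With spike-in scaling the median of all features rose to 0.14 and that of the members to 0.27, with 3 members below 0 in place of 19. Without the 2 CONTROL embryos that stood apart, 0 members and 0.0153% of all features were called, the members' median was -0.0094, and 27 members were below 0. A shift in this direction follows from leaving out CONTROL embryos picked for low member levels.

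The 3 members with the smallest p in each direction come first, in normalised reads of the lowest, median and highest embryo. The log2 change is also given without the 2 CONTROL embryos that stood apart. All 6 had adjusted p of 0.837 and above by edgeR's test with these 2 embryos, and of 0.679 and above without them. Eif1b, a close relative of Eif1, had 94.8, 227 and 339.7 in LOF and 35.8, 156 and 283 in CONTROL (log2 0.44 ± 0.19, and 0.49 without the 2 embryos). The ranges overlapped although the LOF median was the higher one (log2 0.31 in batch 1 and 0.55 in batch 2). Eif4b, which assists the helicase, had 106, 198 and 239.8 in LOF and 121, 144 and 233 in CONTROL (log2 0.23 ± 0.15, and 0.17 without the 2 embryos). Eif3e had 48.6, 95.9 and 171 in LOF and 9.84, 89.7 and 160.2 in CONTROL (log2 0.39 ± 0.25, and 0.18 without the 2 embryos). Both ranges overlapped between the groups. Eif2s2 had 524, 802 and 1377 in LOF and 607, 936 and 1556 in CONTROL (log2 -0.25 ± 0.15, and -0.30 without the 2 embryos). Eif2b1 had 175, 266 and 359.8 in LOF and 224, 303 and 466 in CONTROL (log2 -0.21 ± 0.14, and -0.27 without the 2 embryos). The groups of both overlapped. Eif4e1b had 9.99, 32.7 and 129 in LOF and 3.44, 46.4 and 139 in CONTROL (log2 -0.59 ± 0.36, and -0.15 without the 2 embryos). Its signs differed between the batches (log2 -1.53 in batch 1 and 0.54 in batch 2), and the 2 embryos had 63.7 and 139.

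The other genes followed by name did not pass the test, and the groups overlapped in each of them. Eif2s1, the alpha subunit of eIF2, had 282, 426 and 569 in LOF and 152, 402 and 701 in CONTROL (log2 0.11 ± 0.17, and -0.049 without the 2 embryos). Eif2s3x had 114, 187 and 293 in LOF and 75.4, 156 and 347 in CONTROL (log2 -0.00024 ± 0.20, and -0.14 without the 2 embryos). Eif2s3y had 0, 10.2 and 107 in LOF and 0, 37.4 and 63.8 in CONTROL (log2 -0.097 ± 0.77, and -0.43 without the 2 embryos). In the last, 8 LOF and 6 CONTROL embryos were at 0. Of these, 3 LOF and 2 CONTROL embryos had reads of the Y-linked Uty, so that a 0 of Eif2s3y does not by itself mark an embryo without a Y chromosome. Eif2ak1, the haem-controlled kinase, had 12.1, 38.1 and 70.9 in LOF and 20.97, 32.7 and 46.4 in CONTROL (log2 0.23 ± 0.20, and 0.25 without the 2 embryos). Eif2ak3, the kinase of the endoplasmic reticulum, had 27.4, 47.8 and 74.2 in LOF and 18.6, 43.7 and 106 in CONTROL (log2 0.086 ± 0.21, and -0.038 without the 2 embryos). Eif2ak4 had 5.93, 13.8 and 29.96 in LOF and 6.03, 17.8 and 45.9 in CONTROL (log2 -0.10 ± 0.29, and 0.11 without the 2 embryos). The remaining kinase gene, Eif2ak2, had 7 reads in 29 embryos and was not tested, with 3.44 in the highest LOF and 3.28 in the highest CONTROL embryo. Eif3c had 342, 526 and 816 in LOF and 66.7, 573 and 973 in CONTROL (log2 -0.13 ± 0.23, and -0.37 without the 2 embryos). Eif3a had 206, 369 and 534 in LOF and 102, 297 and 522 in CONTROL (log2 0.22 ± 0.19, and 0.028 without the 2 embryos). In both of these eIF3 genes the 2 CONTROL embryos that stood apart were the lowest of their group and lay under every LOF embryo. Since they were picked for a low share of the members' reads, this is no separate result. Eif3j1 had 153, 210.1 and 317 in LOF and 156, 218 and 417 in CONTROL (log2 -0.071 ± 0.14, and -0.14 without the 2 embryos). Eif3j2 had 6.84, 22.2 and 69.4 in LOF and 2.49, 18.9 and 41.8 in CONTROL (log2 0.25 ± 0.33, and 0.062 without the 2 embryos). This pair of genes encodes the loosely bound subunit.

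Eif4e, the cap-binding protein, had 1061, 1517 and 2159 in LOF and 622, 1388 and 2049 in CONTROL (log2 0.15 ± 0.15, and 0.0087 without the 2 embryos). Eif4a1 had 378, 687 and 1033 in LOF and 433, 636 and 1429 in CONTROL (log2 -0.086 ± 0.15, and -0.11 without the 2 embryos). Eif4a2 had 129, 237 and 303 in LOF and 181, 233 and 368 in CONTROL (log2 -0.048 ± 0.14, and 0.0099 without the 2 embryos). For these well measured genes of eIF4F the medians of the groups were close. Eif4g1 had 181, 341 and 481 in LOF and 129, 343 and 433 in CONTROL (log2 0.12 ± 0.17, and -0.040 without the 2 embryos). Eif4g2 had 280.3, 415 and 531 in LOF and 279, 415 and 560.01 in CONTROL (log2 -0.019 ± 0.13, and -0.11 without the 2 embryos). Eif4g3 had 25.98, 43.02 and 76.8 in LOF and 25.1, 50.6 and 69.8 in CONTROL (log2 -0.13 ± 0.20, and -0.20 without the 2 embryos). All 3 scaffold genes covered like ranges in LOF and CONTROL. Eif4ebp1, the eIF4E repressor, had 9.57, 32.2 and 60.5 in LOF and 4.02, 17.4 and 168 in CONTROL (log2 0.012 ± 0.36, and 0.52 without the 2 embryos). Its signs differed between the batches (log2 -0.66 in batch 1 and 0.96 in batch 2), and the highest CONTROL value was that of embryo 2 of batch 1, one of the 2 that stood apart. Eif4ebp2 had 28.7, 64.8 and 84.3 in LOF and 8.36, 48.4 and 116 in CONTROL (log2 0.14 ± 0.22, and 0.14 without the 2 embryos). Eif4enif1 had 134, 210.3 and 319 in LOF and 119, 208 and 378 in CONTROL (log2 -0.020 ± 0.15, and 0.16 without the 2 embryos). Neither was apart between the groups.

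Eif1, the guard of start codon choice, had 145, 229.9 and 384 in LOF and 159, 268 and 374 in CONTROL (log2 -0.16 ± 0.14, and -0.21 without the 2 embryos). Eif1a had 69.9, 118 and 170.1 in LOF and 51.4, 119 and 174 in CONTROL (log2 0.11 ± 0.17, and 0.13 without the 2 embryos). Eif1ax had 49.3, 146 and 399 in LOF and 67.2, 106 and 339.6 in CONTROL (log2 0.17 ± 0.26, and 0.30 without the 2 embryos). The change of each was smaller than 2 SE. Eif1ad had 92.7, 164 and 299 in LOF and 72.2, 146 and 311 in CONTROL (log2 0.024 ± 0.18, and -0.11 without the 2 embryos). Eif5 had 704, 1013 and 1387 in LOF and 349.5, 887 and 1502 in CONTROL (log2 0.15 ± 0.17, and -0.0094 without the 2 embryos). Eif5a had 1228, 1679 and 2429.6 in LOF and 1233, 1680.2 and 2587 in CONTROL (log2 -0.023 ± 0.13, and -0.062 without the 2 embryos). The last had nearly equal medians. Eif6 had 704, 1238 and 1447 in LOF and 405, 1123 and 2007 in CONTROL (log2 0.0044 ± 0.17, and -0.17 without the 2 embryos). In Eif5 and Eif6 the 2 CONTROL embryos that stood apart were again the lowest of their group, which their choice by a low share of the members' reads favours.

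A call in one experiment and none in the other does not show a difference, so the difference of the TBP effect and the FOXJ3 effect was tested over all 47 embryos with spike-in scaling. It passed in 39 of 53 members, 38 with the lower value under TBP LOF and 1 with the higher, against 27.8% and 0.931% of all features (edgeR's quasi-likelihood test). With TMM 22 and 1 members passed, against 10.6% and 10.2%. Without the 2 rIgG CONTROL embryos 40 and 0 passed, against 27.6% and 0.481%. These shares of all features were not matched for expression, and the members are well expressed. The difference was -3.48 for Eif3e (adjusted p = 1.70e-07) and -3.26 for Eif3m (adjusted p = 9.77e-07). For Eif4e1b, whose estimates had opposite signs, it was 1.42 (adjusted p = 0.0448), and 1.09 (adjusted p = 0.126) without the 2 embryos. Members such as Eif5a, Eif4g2, Eif4a1 and Eif1 did not pass, with differences from -0.71 to -0.47.

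**Figure D5:**
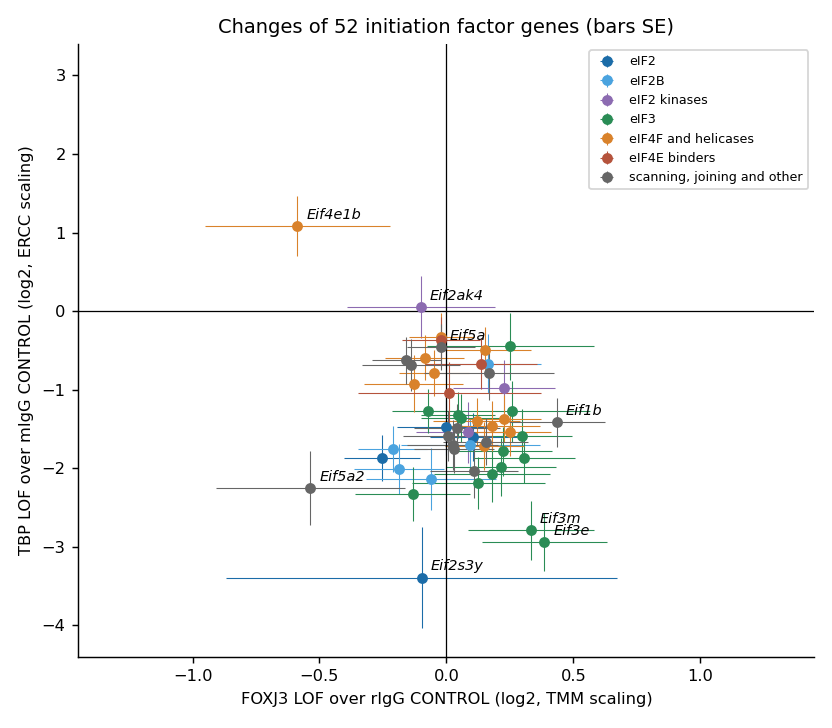
Change of 52 initiation factor genes under FOXJ3 LOF (horizontal, log2, TMM scaling) and TBP LOF (vertical, log2, spike-in scaling), with bars for the SE and colours for the role. Eif4ebp3, with 29 reads in all, is left out. Points lie in a column around 0 on the horizontal axis and mostly under 0 on the vertical one, where Eif2s3y is lowest at -3.39 and Eif4e1b highest at 1.08.

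Several members have processed pseudogenes or near-identical copies, among them Eif1, Eif1a and Eif1ax, Eif2s3x and Eif2s3y, Eif3j1 and Eif3j2, Eif4a1 and Eif4a2, and Eif5a. The sources used here do not say how reads that fit several copies were divided, so that the single values of these genes are uncertain.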

How the data were processed

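Smart-seq+5′ libraries of 49 single embryos were used. The authors trimmed reads with Trimmomatic, mapped the 5′ reads with STAR 2.7.11a to GRCm38 plus the injected construct, and counted the second read of each pair with TEcount, for each gene of gencode M20, each ERCC spike-in and each TE family. The deposited values are these counts, not normalised, and are treated as estimated counts because TEcount can share out reads among copies. All were whole numbers, so that rounding changed nothing. The sources used here do not say how reads that fit several copies were counted, or whether strand was used. Counts per single TE insertion were not used.

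Members and coordinates were taken from gencode M21 (GRCm38). The members, roles and gene lists were chosen with earlier results of these data known. Embryos with at least 500000 reads, 1000 genes, at most 10% mitochondrial and 15% ERCC reads were kept, 47 in all. A gene or TE family entered the tests when 25% or more of an experiment's embryos had 1 read or more of it, which left 19359 for TBP and 19520 for FOXJ3, with edgeR 4.0.16 (quasi-likelihood, R 4.3.3). TBP size factors were medians of ratios of 42 ERCC transcripts (the difference of effects over 47 embryos used 41), and the FOXJ3 fit used TMM and had the library batch as its covariate. Normalised reads are counts divided by size factors with a geometric mean of 1. Values after ± are approximate standard errors of log2 changes. Each is the size of the change divided by the square root of edgeR's F statistic. DESeq2 1.42.0, other scalings, filters, embryo sets, covariates and the embryo number as a block were alternatives. On simulated data the TBP test recovered 79 of 100 features changed by log2 2 and 17 of 100 changed by log2 1, over 18785 features, and the FOXJ3 test 99 of 100 features changed by log2 2 and 62 of 100 changed by log2 1, over 19007. Of unchanged features, 9 and 16 were called. Only these few features were changed, evenly up and down. In the TBP data 29.7% of features were lower, so that recovery there can differ.

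Named genes were the 8 lower and up to 6 higher members with the smallest adjusted p under TBP LOF, the 3 members per direction with the smallest p under FOXJ3 LOF, and 30 members named by role. Eif3l, Eif3b, Eif3f, Eif3h, Eif2b2, Eif2b3, Eif2b5 and Eif4a3 were named after their values were seen, as were Eif2d, Eif4h and the pairs of genes whose shares are described. No molecular identifiers are described, and reads are not independent molecules, so the spread between embryos, not counting error, was used throughout. Nothing given here says which embryos shared a collection, and p-values measure the spread between these embryos.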

Additional observations from a re-analysis of the deposited data

Results flagged for a closer look

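Single embryos that lay far from the rest of their group were looked for in 106 sets of 9 embryos, 53 members in TBP LOF and in mIgG CONTROL, by the gap to the nearest embryo as a share of the group's range. 13 values in 12 genes stood out, in normalised reads with spike-in scaling. The cut-off is one that about 1 in 20 sets of independent, normally distributed values would pass. These sets were not of that kind. All members of an embryo share its size factor, and in TBP LOF Eif4ebp3 was at 0 in 7 of 9 embryos and Eif2s3y in 6. The count of values that stood out was therefore not set against a chance rate. In TBP LOF embryo 10, the group's highest, these were Eif2s3y (22.9, group median 0), Eif3m (89.3, group median 31.2) and Eif4ebp2 (107, group median 34.9). In TBP LOF embryo 1, the group's highest, this was Eif4ebp3 (2.30, group median 0). In mIgG CONTROL embryo 8, the group's highest, these were Eif1a (246, group median 109.9), Eif2s1 (702, group median 364), Eif3m (374, group median 199), Eif4a3 (1208, group median 538) and Eif4h (244, group median 139.8). In mIgG CONTROL embryo 10, the group's highest, these were Eif1b (290.2, group median 164), Eif2b2 (163, group median 89.04) and Eif4e2 (249, group median 123). In mIgG CONTROL embryo 9, the group's lowest, this was Eif2s2 (669, group median 1440.2). CONTROL embryos 8 and 10 held 8 of the 13 values, all at the high end. The FOXJ3 groups of 13 and 16 embryos were not searched in this way.

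The effect of TBP LOF minus that of FOXJ3 LOF (log2, spike-in scaling over 47 embryos) passed the test of the difference in 39 members. Of all features, 27.8% passed with the lower value under TBP LOF and 0.931% with the higher, shares not matched for expression. Among the scanning and joining factors the values were Eif1a -2.40, Eif1b -2.03, Eif5a2 -2.01, Eif5 -2.004, Eif2a -1.95, Eif1ad -1.85, Eif6 -1.78, Eif5b -1.74 and Eif1ax -1.20. For the eIF2 kinases the values were Eif2ak3 -1.83 and Eif2ak1 -1.37. For eIF2B the values were Eif2b3 -2.26, Eif2b2 -2.06, Eif2b4 -2.04 and Eif2b1 -1.75. For eIF2 the values were Eif2s3y -3.37, Eif2s1 -1.89, Eif2s2 -1.82 and Eif2s3x -1.73. For eIF3 the values were Eif3e -3.48, Eif3m -3.26, Eif3g -2.47, Eif3l -2.42, Eif3c -2.36, Eif3d -2.33, Eif3h -2.30, Eif3a -2.16, Eif3f -2.04, Eif3b -1.81, Eif3k -1.59, Eif3i -1.56 and Eif3j1 -1.35. In eIF4F and among the helicases the values were Eif4e -2.03, Eif4a3 -1.91, Eif4e2 -1.79, Eif4b -1.73, Eif4g1 -1.69, Eif4a2 -0.96 and Eif4e1b 1.42. With TMM scaling 23 of the 39 passed in the same direction, and of all features 10.6% were lower and 10.2% higher. Each antibody was compared with normal IgG of its own species. The 2 experiments still differed in the antibody (mouse monoclonal or rabbit polyclonal), in their libraries and in the protein that was lost. These cannot be told apart in this difference.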

How the results depend on the processing

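The count of members lower in TBP LOF embryos was 39, and lay between 26 (TMM and size factors over genes and TE families) and 41 (DESeq2 with ERCC size factors) over the other scalings, tools, filters and embryo sets, and between 35 and 39 with single embryos left out. Of all features, 12.6% were lower with size factors over genes and TE families, 12.7% with TMM, 21.8% with no filter, 29.7% as reported, 29.9% with all 19 embryos, 30.7% with DESeq2 and ERCC size factors and 52.5% with the filterByExpr filter. DESeq2 with ERCC size factors called Eif4a1 (adjusted p = 0.0382) and Eif2d (adjusted p = 0.0460) lower, which edgeR did not. The count of higher members was 1, or 2 with TMM and with size factors over genes and TE families (12.8% and 13.4% of all features), and between 0 and 1 with single embryos left out. The count of members whose effects differed between the experiments fell from 39 to 23 with TMM, which takes out the shift of all features. In this test 27.8% of all features were lower and 0.931% higher, and with TMM 10.6% and 10.2%. No member was called in FOXJ3 LOF under any of the alternatives. With the embryo number as a replicate block, 38 members were lower and 1 higher in TBP LOF, and 36 and 1 in the same embryos without it (chosen after the data were seen), while 23.6% and 23.0% of all features were lower, and 0 were called in FOXJ3 LOF. The deviations of embryos with the same number correlated over 0.1 in 1 pair of the TBP experiment and in 3 pairs of the FOXJ3 experiment, all of batch 2 (r from -0.0545 to 0.134 in 7 pairs of the TBP experiment and from -0.205 to 0.273 in 12 pairs of the FOXJ3 experiment), and since not every pair was over 0.1 the numbers were not taken to pair embryos. Among named members, 20 values over the other alternatives lost a TBP call in the same direction, most with TMM and size factors over genes and TE families, and Eif4a2 lost its call with a turned sign under both of these. Signs turned in TBP LOF as follows (log2). With TMM, these were Eif1 0.17, Eif3j2 0.36, Eif4a1 0.24, Eif4a2 0.066, Eif4ebp2 0.21, Eif4enif1 0.40, Eif4g2 0.44 and Eif5a 0.42. With size factors over genes and TE families, these were Eif1 0.18, Eif1ax 0.029, Eif3j2 0.38, Eif4a1 0.27, Eif4a2 0.090, Eif4ebp2 0.23, Eif4enif1 0.43, Eif4g2 0.45 and Eif5a 0.45. Eif2ak4, near 0, ran from -0.047 to 0.17 with single embryos left out. Leaving out 1 embryo ended the TBP call of Eif4e1b without LOF 2 or 8 or CONTROL 1 (adjusted p 0.0133 to 0.0716), Eif2ak1 without LOF 1, 2, 9 or 11 or CONTROL 8 or 9 (adjusted p 0.0157 to 0.0853), Eif4a2 without LOF 7 or 11 or CONTROL 6, 8 or 10 (adjusted p 0.0163 to 0.0921), Eif4ebp1 without LOF 2, 5, 7 or 8 or CONTROL 6, 8, 9 or 10 (adjusted p 0.0161 to 0.167) and Eif4g3 without LOF 1, 2, 7, 9, 10 or 11 or CONTROL 1, 2, 4, 5, 6, 8, 9 or 10 (adjusted p 0.0119 to 0.08803), and made a call of Eif1ax without LOF 5 or 8 or CONTROL 6 (adjusted p 0.0166 to 0.143) and Eif4ebp2 without LOF 10 (adjusted p 0.0233 to 0.2504).

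In FOXJ3 LOF the changes were small and uncalled, and the signs of 26 named members turned under some alternative (log2). With batch 2 alone they were Eif4e1b 0.54, Eif1ad -0.048, Eif2s1 -0.081, Eif2s3x 0.046, Eif2ak3 -0.23, Eif2ak4 0.11, Eif3a -0.15, Eif3j1 0.024, Eif3j2 -0.48, Eif4a2 0.12, Eif4e -0.031, Eif4enif1 0.15, Eif4g1 -0.075, Eif5a 0.097 and Eif6 -0.15. With ERCC size factors they were Eif2b1 0.011, Eif1 0.037, Eif2s3x 0.25, Eif2s3y 0.074, Eif2ak4 0.080, Eif3c 0.050, Eif3j1 0.060, Eif4a1 0.13, Eif4a2 0.16, Eif4enif1 0.13, Eif4g2 0.16, Eif4g3 0.066 and Eif5a 0.16. With the mCherry-Trim21 level as a covariate they were Eif1a -0.044, Eif2s3y 0.12, Eif2ak4 0.076, Eif4a1 0.047, Eif4ebp1 -0.38, Eif4ebp2 -0.061 and Eif4enif1 0.058. With all 30 embryos they were Eif1ad -0.0033, Eif4ebp1 -0.042 and Eif6 -0.021. With the 2 CONTROL embryos left out (chosen after the data were seen) they were Eif1ad -0.11, Eif2s1 -0.049, Eif2ak3 -0.038, Eif2ak4 0.11, Eif4a2 0.0099, Eif4enif1 0.16, Eif4g1 -0.040, Eif5 -0.0094 and Eif6 -0.17. With the embryo number as a replicate block they were Eif2s3x 0.20, Eif3c 0.040, Eif4a2 0.032, Eif4enif1 0.033, Eif4g2 0.0067 and Eif5a 0.013. With batch 1 alone they were Eif2s3y 0.76, Eif3c 0.10, Eif4a1 0.011, Eif4ebp1 -0.66 and Eif4g2 0.051. With DESeq2 they were Eif4ebp1 -0.031 and Eif6 -0.0019. With the filterByExpr filter it was Eif4ebp1 -0.030. With no filter they were Eif4ebp1 -0.0055 and Eif6 -0.0034. Depth limits the rare members. Eif2ak2 and Eif4ebp3 had 15 and 29 reads over 47 embryos, and a change in them was not detectable at this depth.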
